A study of Mus musculus with 33 samples.

Results

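Genes of great length are mostly intron, and this account describes the cDNAs of hnRNP R iCLIP in the introns of such genes. The cells were mouse motoneurons and NSC34 cells. The 324 members are the protein-coding genes whose annotated span in the iCLIP tables is at least 400 kb, out of 22439 protein-coding genes (1.44%) and 36194 genes in all. The choice used gene length and biotype and no measured value. Their median span was 554 kb, 50 of them reached 1000 kb, and their introns summed to 218.8 Mb, 25.2% of the 867.3 Mb of intron known for 14029 protein-coding genes. A median of 98.8% of a member's span was intron, against 87.6% for other protein-coding genes with a known intron length. Every member had an intron cDNA in at least 1 library. Intron length could be read only for such genes, which were 9399 of the 17653 protein-coding genes under 50 kb. The 867.3 Mb is thus a lower limit and the 25.2% an upper one.

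iCLIP crosslinks a protein to RNA in living cells with ultraviolet light and pulls the protein down with an antibody. It then sequences cDNAs, which mostly stop where the protein was attached. Each cDNA is counted as 1 candidate contact only, because cDNAs were also recovered in the library labelled IgG. Primary motoneurons of CD-1 mice gave 2 unfractionated libraries, 1 nuclear and 1 cytoplasmic library, all with antibody 1 against hnRNP R. The headers enter the condition of every iCLIP library as WT (wild type), and the labels name no treatment. The NSC34 line, a hybrid of mouse neuroblastoma and spinal cord cells with motoneuron traits, gave 2 unfractionated libraries and 1 of each fraction with antibody 1, 1 of each fraction with antibody 2, and 1 library pulled down with control IgG. A motoneuron library made with IgG was not analysed here, so a background for the motoneuron values is lacking. RNA-seq of the axonal and the somatodendritic side of motoneuron cultures in microfluidic chambers covered 4 control (GFP) and 4 7SK knockdown libraries per side and 3 hnRNP R knockdown libraries per side, reported by the authors as 1 FPKM per group. All RNA came from CD-1 cultures too, and the sources used here do not name the agent behind either knockdown. They also do not say whether replicates came from separate cultures, so the p-values cover the spread among the libraries at hand, which may be technical.

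hnRNP R belongs to the heterogeneous nuclear ribonucleoproteins, which coat transcripts from the moment they emerge from RNA polymerase, and it is known in motoneurons for binding mRNAs that reach the axon and for its partner RNA 7SK. Introns of very long genes persist as nascent RNA for hours of transcription, which gives RNA-binding proteins a large substrate. In neurons the longest genes encode mainly synaptic adhesion molecules, receptors, channels and scaffolds, and several of them cover common fragile sites of the genome.

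Long introns also carry microRNA genes, and these mark fixed points of known sequence inside the members. By the annotation that the iCLIP tables use, 22 microRNA genes lay inside 18 members on the same strand, and 17 of them matched a mature sequence in the RefSeq table for GRCm38.p6. The 7 below are shown because their hosts span the range of the cell difference described later. It runs from hosts with cDNAs almost only in motoneurons (Lingo2, Grid1) to Slit3, which went the other way. Capitals mark the seed, bases 2 to 8, and no seed was shared between microRNA genes of this set.
mmu-miR-876-5p (Lingo2): uGGAUUUCucugugaaucacua
mmu-miR-346-5p (Grid1): uGUCUGCCcgagugccugccucu
mmu-miR-153-3p (Ptprn2): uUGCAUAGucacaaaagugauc
mmu-miR-708-5p (Odz4): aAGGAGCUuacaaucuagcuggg
mmu-miR-204-5p (Trpm3): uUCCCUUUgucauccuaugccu
mmu-miR-568 (Zbtb20): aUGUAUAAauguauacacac
mmu-miR-218-5p (Slit3): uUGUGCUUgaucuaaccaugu

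Counts of cDNAs at the microRNA genes themselves were low. Over all 11 libraries 5 of the 22 had a cDNA, and the largest sum was 9, for mir-568 (mm9 chr16:43640767-43640849, plus strand) inside Zbtb20. Its host held 184 and 131 intron cDNAs in the motoneuron libraries and 566 and 120 in the NSC34 libraries, replicate 1 then 2. Lingo2 held 2982 and 2095 in motoneurons and 5 and 0 in NSC34 cells, around mir-876 (chr4:36592405-36592485, minus strand) with 1 cDNA in all. Grid1, around mir-346 (chr14:35707794-35707891, plus strand), held 459 and 337 against 0 and 0. Slit3, around mir-218-2 (chr11:35430317-35430426, plus strand), held 32 and 44 in motoneurons and 1132 and 174 in NSC34 cells, and the microRNA gene had 1 cDNA. miR-218 is known as an abundant microRNA of motoneurons, and a count this low at its gene says nothing of its level.

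Total cDNAs per library ran from 2796 (NSC34 cytoplasmic, antibody 2) to 456721 (NSC34 replicate 1), with 359005 and 319381 in the motoneuron libraries, 99762 in NSC34 replicate 2 and 36280 in the IgG library. What is labelled the IgG library has hnRNP R entered as its protein in the file header, with the same library number as NSC34 replicate 2, and it was taken as IgG from its label alone. Between NSC34 replicates 1 and 2 no difference beyond sampling noise was detected over member introns (chi-square per degree of freedom 1.10 over 132 members, p = 0.209), but one was over the introns of all genes (1.20 over 3155 genes, p = 1.6e-13), and motoneuron replicates differed more (16.9 over 306 members), so the NSC34 libraries were kept as 2 samples and results were also computed with each alone. Of 13 motoneuron markers in the tables, 10 and 9 had no cDNA in motoneuron replicates 1 and 2, Chat, Mnx1 and Isl1 among them, and the authors' deposited table lists Chat and Mnx1 at 0 FPKM in both control compartments. The list summed to 39.0 and 128 CPM (cDNAs per 1000000 cDNAs of the library) in motoneurons and 712 and 561 in NSC34 cells, mostly Ret there. Astrocyte and radial glia markers summed to 582 and 445 CPM in motoneurons against 302 and 160 in NSC34 cells, mostly the long gene Slc1a2, while Gfap, Aqp4, Aldoc and S100b were at 0 in all 4. Microglia markers summed to at most 12.5 CPM in these 4 libraries. The part of other cell types in the results was not tested.

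The introns of these 324 genes held a far larger part of all cDNAs in the motoneuron libraries than in the NSC34 libraries. The share of a library's cDNAs was 35.4% (95% Wilson interval 35.3 to 35.6) in motoneuron replicate 1 and 34.6% (34.4 to 34.8) in replicate 2. In NSC34 cells it was 10.7% (10.6 to 10.8) and 9.55% (9.37 to 9.73), and in the IgG library 11.0% (10.6 to 11.3). Both motoneuron libraries thus lay above all 3 unfractionated NSC34 libraries, and the IgG interval overlapped that of NSC34 replicate 1. The means were 35.0% ± 0.580 (SD, n = 2) and 10.1% ± 0.812 (SD, n = 2), a ratio of 3.46, and 2 libraries against 2 cannot go below p = 0.33 in the exact two-sided permutation test, which is the value found. Intervals cover counting error only.

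**Figure D1:**
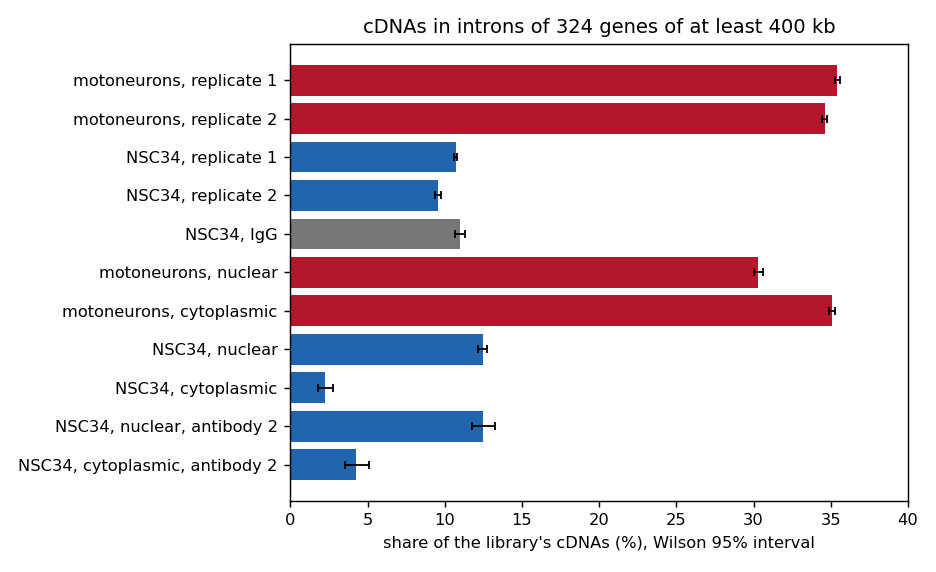
Share of each iCLIP library's cDNAs that lay in introns of the 324 genes (x axis, percent; bars are 1 library each with a Wilson 95% interval; red motoneurons, blue NSC34 with anti-hnRNP R, grey IgG). The 4 motoneuron libraries lie between 30.3% and 35.4%, and the 7 others at 12.5% or lower.

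Against intron length the 2 cell types went in opposite directions. In motoneurons member introns held 1.62 and 1.58 CPM per kb of intron, and introns of protein-coding genes under 400 kb held 0.793 and 0.780. In NSC34 cells the members held 0.489 and 0.436 and the shorter genes 1.01 and 0.924. The IgG library (0.501 and 0.986) resembled the NSC34 libraries. Densities of the shorter genes are upper limits, since genes without an intron cDNA in any library add no intron length. From genes under 50 kb to genes of 1000 kb or more the density rose from 0.667 to 1.81 in motoneuron replicate 1 and fell from 1.29 to 0.322 in NSC34 replicate 1. The 50 longest members alone took 12.5% and 12.2% of all motoneuron cDNAs, against 2.22% and 1.94% in NSC34 cells. Among the members themselves density hardly followed length, with a Spearman correlation of 0.061 and 0.073 over 324 genes in the motoneuron libraries and -0.102 and -0.113 in the NSC34 libraries. These correlations are across genes that share a library and are descriptions.

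**Figure D2:**
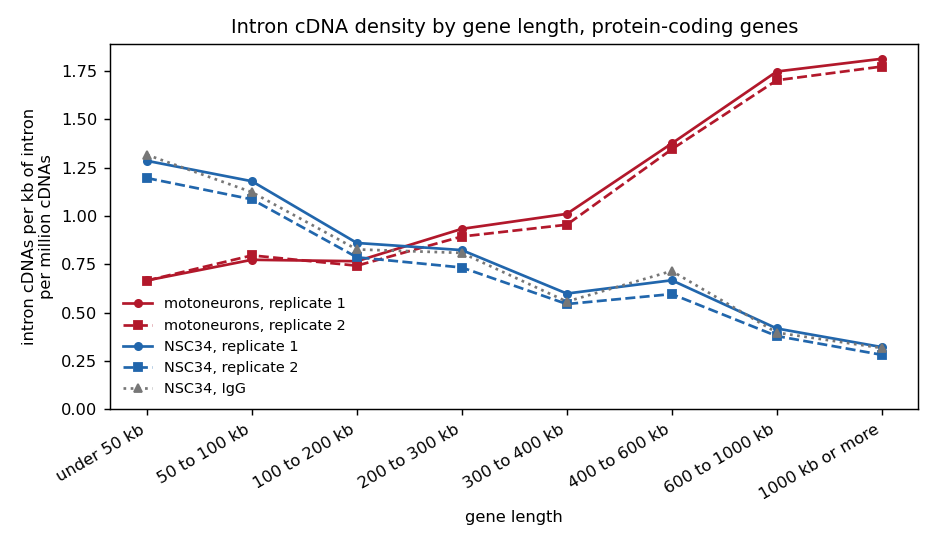
Intron cDNAs as CPM per kb of intron (y axis) by gene length class (x axis) in the 5 unfractionated libraries, protein-coding genes with a known intron length; each point is the summed value of 1 class in 1 library. The motoneuron lines climb to 1.81 and 1.77 in the longest class, and the NSC34 and IgG lines descend to 0.322, 0.282 and 0.317.

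Adhesion molecules of the synapse headed the motoneuron list. Ptprd, a receptor tyrosine phosphatase of the presynapse (mm9 chr4:75587142-77857864), had 3338 and 2086 intron cDNAs in motoneurons and 8, 2 and 1 in NSC34 replicate 1, replicate 2 and IgG. Cntnap2, the contactin-associated protein that clusters potassium channels along axons (chr6:45010059-47251367), had 2637 and 3022 against 23, 5 and 2. Lingo2, a leucine-rich repeat and immunoglobulin-domain membrane protein (chr4:35653900-36898779), stood at 2982 and 2095 against 5, 0 and 1. These 3 genes were picked by their motoneuron counts, so a high value there was built into the choice. For each of them both motoneuron libraries lay above the NSC34 libraries. In CPM the same held, against both NSC34 libraries made with antibody 1, for 230 of the 324 members and 21.8% of all genes tested.

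Also among the 10 members with most motoneuron cDNAs were Nrg3, a neuregulin ligand of the ErbB4 receptor (2407 and 2388 in motoneurons, 247 and 50 in NSC34 cells), Cadm2, a synaptic cell adhesion molecule (2316 and 2226, 40 and 7), Pcdh9, a protocadherin (1976 and 2680, 13 and 5), Sgcz, a sarcoglycan (1988 and 1623, 4 and 3), Csmd1, a membrane protein with complement control domains (2012 and 1515, 15 and 4), and Odz2, the teneurin now named Tenm2 (1648 and 1658, 1 and 1). The 10 took 20.1% and 20.4% of the member cDNAs of the 2 motoneuron libraries, and 41 members held 50% in each. Among the highest per kb of intron were Pcdh9 (6.33 and 9.65), Pcdh7 (5.40 and 9.63), Cadm2 (6.75 and 7.30) and Kirrel3, an immunoglobulin-type adhesion protein (8.08 and 5.97 CPM per kb). Replicates could differ within this set: of 258 members with at least 100 cDNAs over both motoneuron libraries, 51 differed by over 1.5-fold between replicates and 13 by over 2-fold. The ranking over all 324 was close, with a Spearman correlation of 0.963 between motoneuron replicates.

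NSC34 cells drew on other members. None of their 10 members with most cDNAs was among the motoneuron 10, and 5 of their top 50 were among the motoneuron top 50. Dlg2, the postsynaptic scaffold PSD-93 (chr7:98239215-99595512), led with 1463 and 243 cDNAs, against 1307 and 852 in motoneurons and 63 with IgG. It was called higher in motoneurons all the same (log2 fold change 0.95, adjusted p = 2.51e-04 in edgeR), but with all cDNAs as library size the value was 0.15 and not called, and without NSC34 replicate 2 it was 0.79 with an adjusted p of 0.0732. Gpc6, a glypican of the cell surface (1414 and 275), Grip1, a scaffold of AMPA receptors (1377 and 255), and Maml3, a coactivator of Notch (1351 and 265), came next. Slit3, a secreted axon guidance ligand (1132 and 174), Prkg1, a cGMP-dependent kinase (1118 and 183), Arhgap26, a GTPase-activating protein (1059 and 206), Rims2 of the active zone (1043 and 212), the zinc finger factor Tshz2 (999 and 196) and the cation channel Trpm3 (969 and 220) completed the 10. Per kb Maml3 was highest at 7.21 and 6.47 CPM per kb, followed by Tshz2 (5.08 and 4.56), Dgki, a diacylglycerol kinase (4.77 and 4.63), Rims2 (4.78 and 4.44) and Grip1 (4.82 and 4.09). In the IgG library the same 5 genes stood at 9.34, 9.47, 7.38, 4.21 and 4.98 in that order.

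Of the 324 members 311 had at least 10 intron cDNAs over the 5 unfractionated libraries and entered the edgeR quasi-likelihood fit over 8385 genes. At an adjusted p under 0.05, 240 of them (77.2%) were higher in motoneurons and 24 (7.72%) lower, where 22.9% of all genes tested were higher and 13.7% lower. The median log2 fold change was 4.44 for the members and 0.05 for all genes, and it stayed at 4.44 with the 15 tested members that had no NSC34 cDNA set to the floor of 3 counts over both NSC34 libraries. A member can pass the count filter through the group in which it is high, and 13 did not enter. By plain CPM, both motoneuron libraries lay above both NSC34 libraries for 230 members and below them for 61, against 21.8% and 50.1% of all genes tested. Fold changes are on the scale of trimmed-mean (TMM) factors. With all cDNAs as the library size instead the median of all genes moved to -0.74, 222 members were higher and 48 lower, and over all genes the split moved from 1917 higher and 1146 lower to 1262 higher and 2720 lower.

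**Figure D3:**
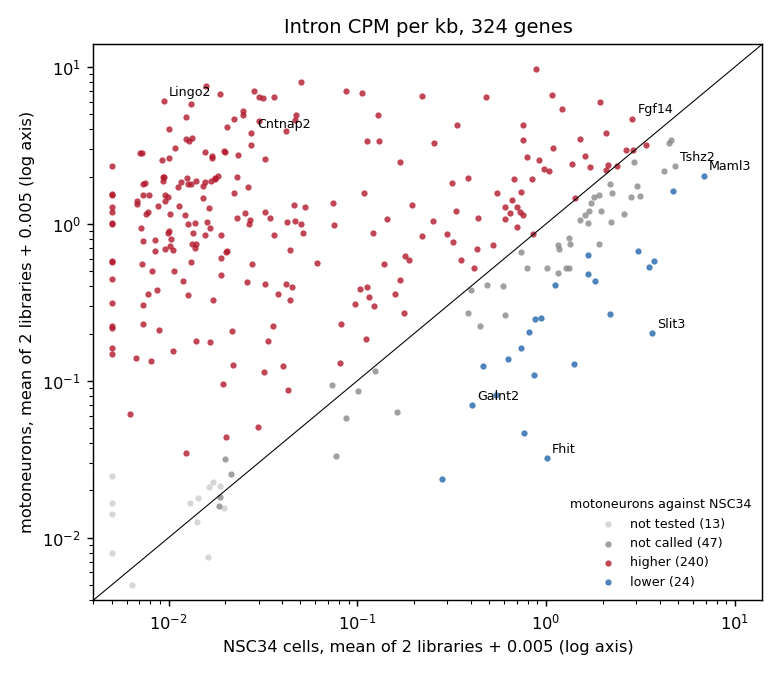
Mean intron CPM per kb over 2 libraries in NSC34 cells (x) and motoneurons (y) for each of the 324 genes, both axes logarithmic with 0.005 added; the line marks equal values and colours give the edgeR call. Most of the 240 genes called higher lie above the line in a broad cloud, a few called higher under TMM scaling lie on or just below it, and the 24 called lower sit at the right below it.

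The calls by gene length followed the same order. Among protein-coding genes under 50 kb 8.52% were called higher in motoneurons, and the share was 24.3% at 50 to 100 kb, 43.4% at 100 to 200 kb, 56.9% at 200 to 300 kb and 70.1% at 300 to 400 kb. It was 73.6% at 400 to 600 kb, 83.8% at 600 to 1000 kb and 79.6% in the 49 tested genes of 1000 kb or more. The share called lower was between 13.0% and 15.6% below 300 kb, and between 5.00% and 9.04% above. The 400 kb limit itself marks no step. Just outside it Adk (395.9 kb) had 44 and 21 cDNAs in motoneurons and 129 and 22 in NSC34 cells, and Plxdc2 (399.5 kb) 64 and 106 against 2 and 0. Just inside, Bnc2 (400.2 kb) had 39 and 27 against 202 and 29, Dst (400.4 kb) 132 and 126 against 391 and 78, and Dock4 (400.4 kb) 224 and 196 against 464 and 74.

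The 10 highest fitted changes belonged mostly to genes without a cDNA in either unfractionated NSC34 library made with antibody 1. For these the ratio is a lower bound, set at 3 counts over both NSC34 libraries. The ratios leave out the IgG library and the fractions. The gene listed as 6130401L20Rik, now Egfem1 (568 and 394 cDNAs in motoneurons, 0 and 0 in NSC34) was at least 263-fold higher in CPM, and Grid1, a delta-type glutamate receptor, at least 218-fold. Kcnma1, the large-conductance calcium-activated potassium channel (275 and 241), was at least 141-fold and Cacna1d, an L-type calcium channel (218 and 165), at least 105-fold higher. Nav2, a neuron navigator (181 and 173), was at least 96.8-fold, and Edil3, a matrix protein (111 and 213), and Atxn1, ataxin 1 (156 and 168), each at least 88.6-fold higher. Odz2 (1 and 1 in NSC34) had a ratio of 1356 with a 95% counting interval from 375 to 11201, Lingo2 (5 and 0) one of 833 from 357 to 2566, and Rims1, an active zone scaffold (552 and 470 in motoneurons, 1 and 0 in NSC34), one of 838 from 150.1 to 33145. All 10 passed with an adjusted p under 0.05 in edgeR's quasi-likelihood test. The IgG library, also of NSC34 cells, held 1 cDNA each of Egfem1, Grid1, Kcnma1 and Lingo2, 2 of Nav2 and 3 of Rims1. It held 0 of Cacna1d, Edil3, Atxn1 and Odz2. With 36280 cDNAs in that library, 3 counts stand for 82.7 CPM, against 6.57 CPM in NSC34 replicate 1. Against IgG these ratios are thus not bounded as tightly. Edil3 had 2 cDNAs and Egfem1 1 in the nuclear NSC34 library with antibody 2.

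Sorted by what the genes do, 4 lists were called higher without exception. All 19 synaptic adhesion genes and neurexin partners were higher, with a median log2 fold change of 8.17, and held 6.57% and 6.29% of all motoneuron cDNAs against 0.407% and 0.350% in NSC34 cells. All 13 immunoglobulin-type adhesion genes were higher (median 8.28), at 4.62% and 3.98% against 0.115% and 0.0932%, with Lingo2 on top. All 12 cadherins and catenins were higher (median 6.72), at 1.93% and 2.51% against 0.123% and 0.108%, with Pcdh9 on top. All 11 glutamate and GABA receptor genes were higher (median 8.71, or 8.57 with Grid1 at its bound), at 1.76% and 1.87% against 0.0114% and 0.0211%. Grik2, a kainate receptor subunit, led that list with 1174 and 1738 cDNAs against 2 and 3, and 3 with IgG. For these 4 lists each motoneuron library held more than 10 times the share of any NSC34 library. The lists were drawn up with earlier results of these data known and describe the members only. All genes tested had a median of 0.05, and 22.9% of them were called higher. Of all members tested 77.2% were called higher.

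Channels, scaffolds and linkers were mixed. For comparison, 77.2% of all members tested were higher and 7.72% lower, and 22.9% and 13.7% of all genes tested. Among 14 ion channel genes 12 were higher (median 4.66), Kcnip4, a potassium channel-interacting protein, leading with 911 and 1380 against 6 and 0, and Cacna1c and Trpm3 were not called. Of 20 synaptic scaffold and vesicle genes 16 were higher (median 1.98), Utrn, the dystrophin relative utrophin, was lower, and Exoc4, Magi1 and Rims2 were not called. Exoc4 changed side with the scaling, at 0.27 on the log2 scale here and -0.53 with all cDNAs as library size (adjusted p = 0.0461 in edgeR). Of 15 ankyrins, spectrins and cytoskeletal linkers 11 were higher (median 2.42), led by Ank2 (895 and 745 against 364 and 77), Dock2 was lower, and Dock4, Dst and Mast4 were not called.

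Signalling enzymes and regulators of transcription were mixed as well. Again the shares were 77.2% higher and 7.72% lower for all members tested, and 22.9% and 13.7% for all genes tested. Of 26 kinases, phosphodiesterases and signalling enzymes 16 were higher and 2 lower (median 1.38), the lower ones being Dgki and St6galnac3, a sialyltransferase. They held 3.02% and 3.03% of motoneuron cDNAs, 1.94% and 1.72% of NSC34 cDNAs and 2.02% with IgG. Fgf14, an intracellular modulator of sodium channels placed in this list, was high in both cells, with 1064 and 1127 cDNAs in motoneurons and 951 and 187 in NSC34 cells (log2 fold change 1.51, SE 0.23, adjusted p = 8.73e-09 in edgeR). Of 17 transcription and chromatin regulators 11 were higher and 2 lower (median 2.28), with Auts2 on top (1297 and 960 against 537 and 119) and Sox6 and Zbtb20 lower. Of 5 RNA-binding proteins 3 were higher, led by A2bp1, the splicing factor now named Rbfox1 (1521 and 1126 against 63 and 12), and Msi2 and Rbms3 were not called.

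Genes over common fragile sites, a list that overlaps the others, were split. Of 21 such genes 15 were higher, Cntnap2 and Ptprd among them, 3 were lower and 3 not called (median 2.84). The lower ones were Fhit, a dinucleotide hydrolase (chr14:10382605-11994548), Immp2l, a mitochondrial inner membrane peptidase subunit, and Wwox, a WW-domain oxidoreductase. Fhit had 20 and 10 cDNAs in motoneurons, 771 and 154 in NSC34 cells and 41 with IgG, the largest drop of any member (log2 fold change -4.39, SE 0.31, adjusted p = 1.51e-26 in edgeR). Both motoneuron libraries lay below all 3 NSC34 libraries in CPM for Fhit. The 162 members in none of the lists had 110 higher, 15 lower, 24 not called and 13 not tested, with a median of 4.01. Over all members tested 77.2% were higher and 7.72% lower, against 22.9% and 13.7% of all genes tested.

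**Figure D4:**
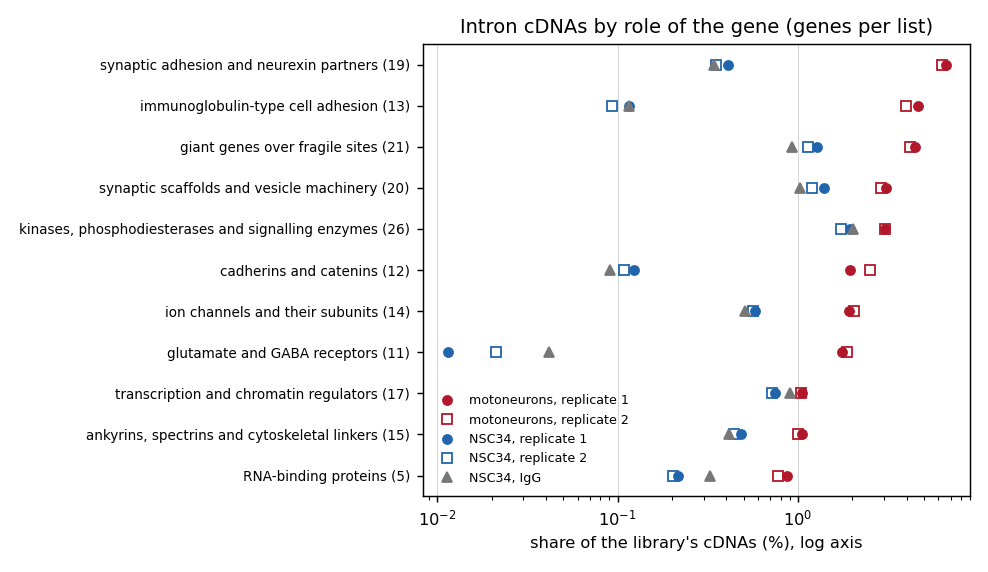
Share of each unfractionated library's cDNAs (x axis, percent, logarithmic) in introns of the members of 11 role lists (y axis, number of members in parentheses); each symbol is 1 library. The 4 adhesion and receptor lists show the widest gaps between red and blue, down to 0.0114% for receptors in NSC34 replicate 1, and the kinase and transcription lists the narrowest.

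After Fhit, the members with the largest falls were Slit3 (log2 fold change -3.44, SE 0.27), 1700112E06Rik, now Lrmda (23 and 7 cDNAs in motoneurons, 377 and 75 in NSC34), Dock2, a guanine nucleotide exchange factor (5 and 1, 57 and 13), and Diap3, a formin (20 and 20, 345 and 59). Bcas3, Immp2l, the nuclease Snd1, the chromatin reader Dpf3 and Atrnl1 followed, with log2 fold changes between -1.90 and -2.27. All 24 lower members together held 0.564% and 0.447% of motoneuron cDNAs, 2.70% and 2.40% of NSC34 cDNAs and 3.27% of IgG cDNAs. Their share in the IgG library was thus no lower than with the antibody.

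NSC34 cells could be set against a single IgG library of the same line, so the spread of the IgG arm is taken from the other groups and the recovery of changes in this contrast was not simulated. In the same edgeR fit 0 members were higher than IgG and 1 was lower, where 0.131% and 0.239% of the 8385 genes tested were called. At an unadjusted p under 0.05 there were 47 of 311 members and 830 of all 8385 genes, and DESeq2 gave 0 higher and 0 lower, with 30 at an unadjusted p under 0.05. The motoneuron libraries share this fit, and without motoneuron replicate 1 the counts were 13 higher and 5 lower of 306 members, against 53 and 35 of 7691 genes. Without replicate 2 they were 13 and 5 of 310 members, against 54 and 35 of 7757 genes. The median log2 difference was 0.31 for members and 0.52 for all genes. The lower member was Galnt2, a galactosaminyl transferase, with 683 and 126 cDNAs in NSC34 cells and 203 with IgG (log2 difference -1.74, adjusted p = 2.2e-05 in edgeR, resting on 1 IgG library). The IgG library ranked the members much as the NSC34 libraries did, with Spearman correlations of 0.846 and 0.838 over 324 genes, against 0.159 and 0.125 with the motoneuron libraries. The 240 members called higher in motoneurons held 3.86% and 3.48% of NSC34 cDNAs and 3.73% of IgG cDNAs.

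Galnt2 is also the longest member, and its model needs care. The tables give it 4434.8 kb (chr8:122434818-126869623), but RefSeq gives the gene of that name 114 kb on GRCm38.p6. Fgfr2, a fibroblast growth factor receptor, is listed at 3009.1 kb against 104 kb in RefSeq. In all, 15 of the 315 members matched to a RefSeq gene are under 400 kb there. For Ptprd (2270.7 kb), Dmd, the dystrophin gene (2257.3 kb), and Cntnap2 (2241.3 kb), the next in length, RefSeq gives 2270.5, 2390.4 and 2241.3 kb. Dmd had 371 and 474 cDNAs in motoneurons and 12, 1 and 0 in NSC34 replicate 1, replicate 2 and IgG. Fgfr2 had 52 and 29 against 76, 20 and 6 and was not called. There are 4 pairs of members that overlap each other, 2 on the same strand (AL683857.1 with Diap2, AL773587.1 with Odz1) and 2 on opposite strands (Dpf3 with Rgs6, Nell2 with Tmem117), so their counts may share cDNAs of the same place.

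Nuclear and cytoplasmic fractions went opposite ways in the 2 cell types. In motoneurons the members' share of cDNAs was 30.3% (30.0 to 30.6) in the nuclear and 35.1% (34.9 to 35.3) in the cytoplasmic library, the latter close to the unfractionated 35.4% and 34.6%. In NSC34 cells with antibody 1 it was 12.4% (12.2 to 12.7) nuclear and 2.21% (1.78 to 2.75) cytoplasmic, and with antibody 2 12.5% (11.8 to 13.3) and 4.26% (3.57 to 5.07). The differences, nuclear minus cytoplasmic, were -4.77, 10.2 and 8.25 percentage points. The exact paired permutation test over the 3 pairs gave p = 0.5, and 3 pairs cannot go below 0.25. Introns of all genes took 91.5% of motoneuron nuclear and 87.5% of motoneuron cytoplasmic cDNAs, but 91.8% and 26.4% in NSC34 cells with antibody 1. Of intron cDNAs alone the members took 33.1% and 40.1% in motoneurons and 13.6% and 8.40% in NSC34 cells with antibody 1.

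Single genes differed in direction between the motoneuron fractions. Cadm2 had 345 nuclear and 1232 cytoplasmic cDNAs, or 3.96 and 6.62 CPM per kb. Grip1 went the other way, with 301 and 376, or 5.27 and 3.09. The cytoplasmic library ranked the members like the unfractionated ones (Spearman 0.984 and 0.980). In the edgeR fit with a term for each pair 0 of 304 members tested were called, and 0.0% of 4620 genes. DESeq2 gave 0 as well, and at an unadjusted p under 0.05 edgeR gave 0 members and DESeq2 6. On simulated data with 4-fold changes this design recovered 0 of 200 genes, so it could not show a change of that size. The NSC34 cytoplasmic libraries held 79 and 119 member cDNAs in all, from 53 and 69 members.

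Antibodies 1 and 2 could be compared in the NSC34 fractions only. Both nuclear libraries gave the members the same share within counting error, 12.4% and 12.5%. The cytoplasmic libraries gave 2.21% and 4.26%, with intervals that did not overlap. Rank correlation of members between the nuclear libraries was 0.745. Members with most cDNAs in the nuclear antibody 1 library appeared with antibody 2 as well. Examples were Dlg2 with 208 and 35 cDNAs, Rims2 with 178 and 14 and Gpc6 with 166 and 43. In edgeR 0 of 119 members tested differed, where 0.0% of 1416 genes were called, and 0 members had an unadjusted p under 0.05. On simulated 4-fold changes 0 of 200 genes were recovered here too.

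In the RNA of the motoneuron cultures these genes stood at moderate level. Of the 324 members 314 were matched by name, and in the authors' deposited table for hnRNP R 279 stood at 1 FPKM or more on the somatodendritic side of controls and 252 in control axons. Over the 314 the median was 7.68 FPKM in cell bodies and 4.10 in axons, per the authors' deposited tables. The tables were scaled separately, so levels across them are only set side by side. With 0.1 FPKM added, 285 members at 1 FPKM or more had a median log2 ratio of axon to cell body of -1.10, and 40 were higher in axons (14.0%), against -0.58 and 29.5% for all genes. In the authors' deposited tables Cntnap2 stood at 9.65 FPKM in axons and 55.8 in cell bodies. Lingo2 stood at 2.14 and 16.2 and Ptprd at 23.8 and 29.3. Fibroblast and mural markers summed there to 1029 FPKM in control axons and 162 in control cell bodies. Astrocyte and radial glia markers summed to 783 and 702. Motoneuron (80.5 and 195), oligodendrocyte (30.8 and 94.2) and microglia and macrophage markers (12.9 and 69.4) were lower in axons. The part of other cell types in the levels and in the axon ratios was not tested.

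Members with higher somatodendritic RNA in the motoneuron cultures had more intron cDNAs per kb in the motoneuron libraries. Over 314 members the Spearman correlation of mean motoneuron density with somatodendritic FPKM was 0.642, and that of NSC34 density with the same FPKM was 0.233. Both are across genes, which are not independent replicates. RNA of NSC34 cells was not analysed here, so crosslinks cannot be set against RNA level in that line, and in motoneurons spliced RNA does not give the amount of nascent intron. Members called higher in motoneurons had a median of 9.09 FPKM in cell bodies, those not called 8.10 and the 24 lower ones 3.99, in the authors' deposited table. Sgcz was one of the members with many intron cDNAs and little RNA, at 1.56 FPKM in cell bodies in the authors' deposited table. Egfem1, with 568 and 394 cDNAs in motoneurons, stood at 1.47 FPKM there. Fhit, with the largest fall against NSC34 cells, was listed at 0 FPKM in cell bodies and at 1.29 in axons in the authors' deposited table, and Slit3 at 2.94 and 10.3.

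Knockdown of hnRNP R left the RNA of these genes mostly uncalled. The targeted gene Hnrnpr stood at 27.2 FPKM in control and 10.8 in knockdown cell bodies (q = 0.310) and at 9.93 and 3.98 in axons, untested there, in the authors' deposited tables. In cell bodies 69 members were tested and 1 passed the authors' q under 0.05, where 0.975% of all tested genes did. That gene was Camta1, a calmodulin-binding transcription activator, with 66.3 FPKM in controls and 36.7 after knockdown in the authors' deposited table (log2 ratio -0.85, q = 0.00865). Its introns held 323 and 253 cDNAs in motoneurons, 225 and 45 in NSC34 cells and 37 with IgG. Of the 69 tested members 42 were higher and 27 lower, with a median log2 ratio of 0.08 against 0.02 for all tested genes, and 9 (13.0%) had an unadjusted p under 0.05, against 12.3% of all tested genes. Motoneuron markers summed to 195 FPKM in control and 145 in knockdown cell bodies, and oligodendrocyte markers to 94.2 and 137, in the authors' deposited table, and their part in these values was not tested.

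Of the tested members with the 3 highest and 3 lowest ratios in hnRNP R knockdown cell bodies, Camta1 alone passed, and members that the authors did not test are not ranked here. Dnm3, a dynamin, stood at 30.6 and 54.1 FPKM (q = 0.112), Zbtb20 at 15.3 and 25.7 (q = 0.588) and Cadm2 at 27.0 and 43.8 (q = 0.458), control first, in the authors' deposited table. Cntnap2 stood at 55.8 and 31.6 FPKM (q = 0.444) and Slc35f1, a member of a solute carrier family, at 30.4 and 21.1 (q = 0.0781) in the authors' deposited table. In axons 28 members were tested and 0 passed, where 0.114% of all tested genes did. Of the 28, 5 (17.9%) had an unadjusted p under 0.05, against 9.26% of all tested genes. In the authors' deposited table motoneuron markers summed to 80.5 FPKM in control axons and 41.7 after knockdown. Oligodendrocyte markers summed to 30.8 and 54.1, and microglia and macrophage markers to 12.9 and 31.2. Astrocyte and radial glia markers stood at 783 and 790, and fibroblast and mural markers at 1029 and 1144. The part of these markers' cells in the values was not tested. Cadm2 (6.26 and 25.4 FPKM, q = 0.566), the merged record of Cdh4 (8.84 and 34.4, q = 0.50) and the ciliary gene Bbs9 (9.80 and 25.4, q = 0.221) had the highest ratios among the 28 tested members in the authors' deposited table. Nrxn3, a presynaptic adhesion receptor (31.5 and 10.2 FPKM, q = 0.226), Dpp6, a potassium channel subunit (35.3 and 14.3, q = 0.466), and the merged record of Palm2 (39.4 and 26.5, q = 0.807) had the lowest of those tested in the authors' deposited table.

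Knockdown of 7SK gave 1 call on the somatodendritic side. Rn7sk itself had 9104 FPKM in controls and 6370.2 after knockdown there (log2 ratio -0.52, q = 0.00407), but stood at 2708 and 3508 FPKM in the axon group labelled 7SK knockdown, opposite to that label, in the authors' deposited tables. Of 40 members tested in cell bodies 1 passed, where 2.51% of all tested genes did. Cadps, which primes dense-core vesicles for release, had 36.7 FPKM in controls and 25.7 after knockdown in the authors' deposited table (log2 ratio -0.51, q = 0.0489). Its introns held 628 and 655 cDNAs in motoneurons and 75 and 13 in NSC34 cells. Cdh13, a cadherin without a transmembrane part, stood at 35.1 and 17.3 FPKM (q = 0.0525), the calcium sensor Ncald at 28.7 and 17.7 (q = 0.191) and the transcription factor Nfia at 39.1 and 25.2 (q = 0.483) in the authors' deposited table. Exoc4 of the exocyst (24.1 and 38.0, q = 0.366), Odz4, a teneurin (18.6 and 28.5, q = 0.474), and Dnm3 (28.2 and 40.8, q = 0.483) had the highest ratios among the tested members in the authors' deposited table. The median over the 40 was -0.07, against 0.06 for all tested genes, and 6 (15%) had an unadjusted p under 0.05, against 15.3% of all tested genes. In the authors' deposited table for these cell bodies motoneuron markers summed to 180 FPKM in controls and 105 after knockdown, microglia and macrophage markers to 63.9 and 101, and fibroblast and mural markers to 150 and 230, and their part in these values was not tested.

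In the axon group labelled 7SK knockdown 10 members were tested and 0 passed, where 3.07% of all tested genes did, and 3 (30%) had an unadjusted p under 0.05, against 18.1% of all tested genes. The authors' deposited table gave Aff3 at 19.6 and 47.7 FPKM (q = 0.302), Ntm, a neurotrimin adhesion molecule, at 16.4 and 36.7 (q = 0.142) and Ank3, the axon initial segment organiser ankyrin G, at 28.1 and 60.6 (q = 0.0830). Dpp6 (35.9 and 12.1, q = 0.335), Nfia (40.5 and 30.9, q = 0.821) and the record of Palm2 (40.5 and 39.5, q = 0.988) had the lowest ratios of the 10 tested members in the authors' deposited table. Microglia and macrophage markers summed to 13.2 FPKM in control axons and 191 in this group, and fibroblast and mural markers to 1061 and 562, in the authors' deposited table, and their part in these values was not tested. The knockdowns share their control libraries, so values of both are given side by side only. Of the 50 members with most motoneuron cDNAs 22 were tested in hnRNP R cell bodies and 8 in hnRNP R axons. In 7SK cell bodies 13 were tested, and 4 in the axon group labelled 7SK. In each comparison 0 passed, where 0.975%, 0.114%, 2.51% and 3.07% of all tested genes did, in that order. With so few tests, 0 calls do not set these members apart from other genes.

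**Figure D5:**
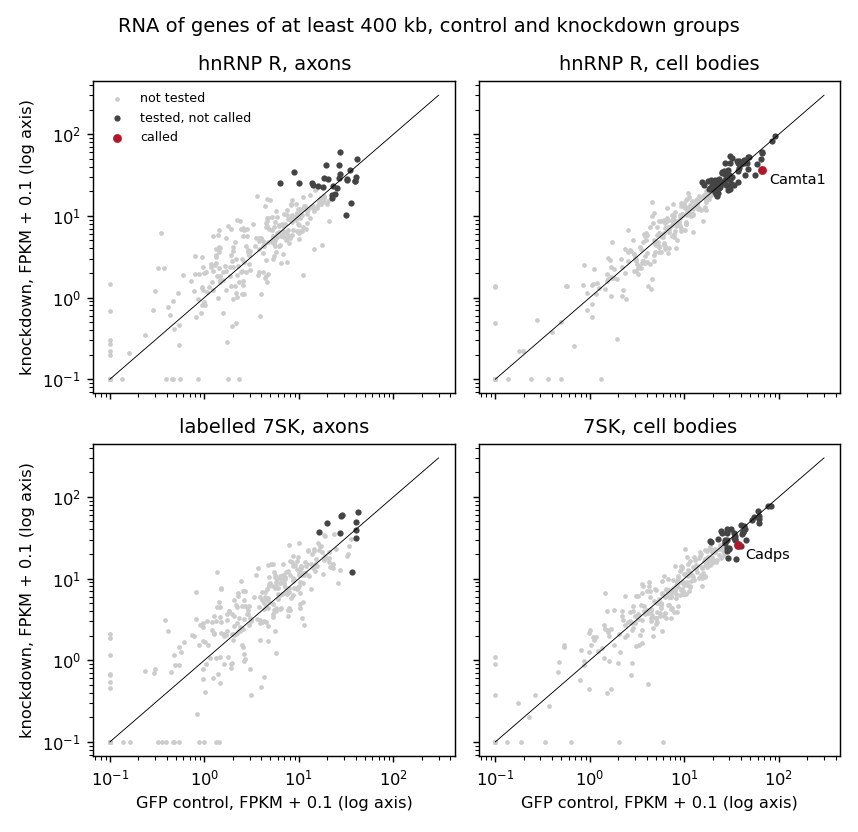
FPKM of the matched members in control (x) and knockdown (y) groups of the 4 deposited tables, 0.1 FPKM added, both axes logarithmic; each point is 1 gene and 1 value per group without replicates, and the line marks equal values. Tested genes (dark) crowd at the upper right because the authors tested only well expressed genes, and the 2 called genes, Camta1 and Cadps, lie just below the line.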

How the data were processed

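The deposited iCLIP tables give a count of cDNAs per gene, gene part and library, on build mm9 with Ensembl release 59 per the file headers. The counts of same-strand intron cDNAs were used, and the deposited density, a signal per base of intron, served only to read each gene's intron length. The 4 RNA tables hold FPKM values made by the authors, with Cufflinks 2.2.1 and FastQC 0.10.1 named in the submitters' processing notes, 1 value per group. Their log2 ratios (knockdown over control), p-values and q-values are the authors' and were used as deposited. The sources used here name no aligner and do not say how duplicate reads were merged. A further 1210 value columns of the iCLIP tables were not used.

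Genes with 10 or more intron cDNAs summed over a fit's libraries were tested with edgeR 4.0.16 (R 4.3.3), TMM factors and Benjamini-Hochberg adjustment at 0.05. The 5 unfractionated libraries shared 1 fit, with no term for the library number that NSC34 replicate 2 and IgG share. The fractions had a term per nuclear and cytoplasmic pair, whose library numbers agree in the headers. Deviations of paired libraries from the fraction means correlate (0.559, 0.283 and 0.281 over 4620 genes). Those means run over both cell types, so the cell difference alone can give such correlations, and they do not bear on the pairing. On simulated data with 4-fold changes the motoneuron comparison recovered 198 of 200 genes with 12 false calls among 7945. The changed genes were drawn from those with the highest counts, with the same fixed spread for every gene. Recovery of genes with few cDNAs, or at the spread of the real replicates, was thus not tested. Alternatives included DESeq2 1.42.0, other scalings, filters and left-out libraries. Shares carry Wilson 95% intervals, and rates per kb use intron length. Genes were matched to RefSeq and to the RNA tables by name (285 exactly, 2 by identifier, 28 by synonym, 9 unmatched), and 6 matched RNA records merge neighbouring genes. Named genes are the 5 longest members, the 10 with most cDNAs and 5 with most per kb in each cell type, the 10 highest and 10 lowest called in each iCLIP contrast, the leader of each role list, and the called members and the 3 highest and 3 lowest ratios of each RNA table. Hosts of printed microRNAs, exonic leaders and other genes were named after their values were seen. The members and lists were chosen with earlier results of these data known. A few genes that the rule names are not reported here.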

Additional observations from a re-analysis of the deposited data

Results flagged for a closer look

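The members' share of cDNAs moved in opposite directions between fractions of the 2 cell types. Nuclear minus cytoplasmic, it was -4.77 percentage points in the single motoneuron pair, and 10.2 (antibody 1) and 8.25 (antibody 2) in the NSC34 pairs. The difference between cell types was not tested, since motoneurons have 1 pair. Beside it, 87.5% of motoneuron cytoplasmic cDNAs were intronic against 26.4% and 43.0% in the NSC34 cytoplasmic libraries, which held 3569 and 2796 cDNAs in all, and the part of these in the result was not tested.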

How the results depend on the processing

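Against NSC34 cells the number of members higher in motoneurons was between 220 and 248 in all 12 alternatives and without the 15 members under 400 kb in RefSeq (235, chosen after seeing the data). Those lower were 48 without TMM factors, with all cDNAs as library size, and 16 to 33 otherwise. With the replicate number as a block (replicate block) the counts were 239 higher and 28 lower. The numbers only name the libraries, as same-numbered libraries did not deviate together (correlation 0.004). Over all genes DESeq2 called 937 higher and 263 lower, and leaving out NSC34 replicate 1 gave 1148 and 500. Leaving out a library gave 224 to 244 higher and 20 to 33 lower. Against IgG, members called higher were 1 with all same-strand cDNAs and 0 to 13 when a library was left out, and members called lower were 0 in DESeq2, 2 without TMM factors and 1 to 5 with a library left out. The ratio of 3.46 became 2.92 with protein-coding intron cDNAs as the total, 2.99 at 300 kb, 5.07 at 600 kb and 2.81 without the 10 members with most motoneuron cDNAs, the last chosen after seeing the data. Authors' q under 0.10 gave 3 members in hnRNP R cell bodies, 1 in the axon group labelled 7SK and 2 in 7SK cell bodies. The cause of these shifts was not tested.

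Of 67 named members 53 were called under every alternative, and 1 reversed: Exoc4 (0.27, not called) was at -0.53 without TMM factors, and called. Dlg2 (0.95) was at 0.15 there and not called. No fraction or antibody alternative called a member, the fit without the pair term (no replicate block) included. The NSC34 cytoplasmic libraries allow a gene up to 841 and 1073 CPM at a count of 0. No paired analysis was possible for the RNA tables because they hold 1 value per group.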

Other observations

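Few member cDNAs fell outside introns, and those were spread differently between cell types. In motoneurons 98.4% and 98.3% of member cDNAs were intronic, and 1312 and 1288 lay in 3′ UTRs and 669 and 620 in coding sequence. Cugbp2, the splicing regulator now named Celf2, had most (85 and 39 exonic cDNAs in motoneurons, 0 and 0 in NSC34 cells), followed by Cadm2 (48 and 75, 0 and 0) and Camta1 (44 and 54, 14 and 1). Nfib, a nuclear factor I gene, was the reverse, with 45 and 23 in motoneurons and 113 and 40 in NSC34 cells. These values were not tested.

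Antisense cDNAs in member introns were rarer in motoneurons. Of 100 member intron cDNAs on either strand, 99.0 and 99.4 were sense in motoneurons, 93.3 and 91.8 in NSC34 cells and 90.6 with IgG, whereas in other genes' introns the values were 95.8, 97.1, 95.8, 94.9 and 94.6. In the cytoplasmic NSC34 libraries 63.7 and 64.7 of 100 were sense in member introns and 77.6 and 80.1 in the introns of other genes.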
